A study of Homo sapiens with 6 samples.

Results

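The genes described here are 44 cyclins, cyclin-dependent kinases (CDKs), CDK inhibitors and members of the E2F-RB network. They were taken by symbol from a table of read counts for 34811 genes, and all 44 symbols were found once. The table compares 3 RNA-seq libraries of OV3/SCR cells with 3 of OV3/COX1KD cells. Both lines were derived from OVCAR-3, an established human ovarian carcinoma line: OV3/SCR cells carry a scrambled shRNA and OV3/COX1KD cells an shRNA against COX-1 (PTGS1), each from a stably transfected pRS HuSH-29 plasmid selected with puromycin. The 3 libraries of each line came from independent cell populations in medium with 10% serum, harvested in growing log phase at 60 to 70% confluence. Each line was represented by 1 clone, so the knockdown and the clone cannot be told apart. Library totals lay between 25291505 and 27391538 counts. OV3/COX1KD replicate 2 stood apart from its sister libraries, since its chi-square over genes, divided by the degrees of freedom, was 4.92 and 6.40 against them and 1.91 between them (1.82 to 3.16 among OV3/SCR libraries).

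Progress through the cell cycle is driven by CDKs, which are active only when bound to a cyclin. In G1 phase, D-type cyclins with CDK4 or CDK6 phosphorylate RB1 and its relatives, the pocket proteins, which then release E2F factors bound to their DP partners, and E2F factors switch on genes of DNA replication and further cyclins. INK4 and CIP/KIP proteins inhibit the CDKs, WEE1 and PKMYT1 keep them phosphorylated and inactive, and CDC25 phosphatases reverse that block. CCNE1 and the RB pathway are altered in many high-grade serous ovarian carcinomas, for which OVCAR-3 is a common model.

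OV3/COX1KD and OV3/SCR cells differed in 29 of the 43 members that passed the filter on low counts, with 15 up and 14 down in OV3/COX1KD (edgeR's quasi-likelihood test, FDR by Benjamini-Hochberg over 17309 tested genes, called under 0.01). This is 67.4% of the tested members, against 47.9% of all tested genes. Log2 fold changes are of OV3/COX1KD over OV3/SCR, with their standard error (SE). Most members were abundant: at a mean log2 CPM (read counts scaled to the size of the library) of at least 5, 66.7% of 30 members and 67.1% of 6186 genes were called, so at a matched level the share of members called was close to the background. By direction, 25.8% of all tested genes were called higher and 22.1% lower. The median log2 fold change of the members was -0.0013, against -0.0087 over all tested genes. With total count scaling in place of TMM the split was 10 members higher and 16 lower, or 38.5% higher among those called in place of 51.7%, and over all genes 41.0% in place of 53.9%. Without OV3/COX1KD replicate 2, 8989 genes were called in place of 8293, among them 16 members higher and 14 lower, and leaving out any other library gave 7124 to 7401 called genes.

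Among the called members, 11 had a log2 fold change beyond 0.5 in size, 7 lower and 4 higher, or 25.6% of the tested members against 19.9% of all tested genes (10% lower and 9.87% higher). The median size of the log2 fold change was smaller in the members, 0.18 against 0.28 over all tested genes. At a mean log2 CPM of at least 5 it was 0.14 in the members and 0.20 in all genes. The 7 lower were CCNA1, CCND1, CDKN2B, CDK6, CCND3, PKMYT1 and E2F2, and the 4 higher were CDKN2C, CDKN1C, TFDP1 and E2F8. These 11 fell in 8 of the 13 role groups. Of the S-phase and mitotic cyclins and kinases, CCNE1, CCNA2, CDK2, CCNB1, CDK1 and CCNF lay within 0.16 of a log2 fold change of 0, and CCNE2 (0.17), CCNB2 (0.28) and CCNA1 (-2.52) lay outside it. In 31 of the 43 members the 3 libraries of the 2 lines did not overlap in normalized CPM, against 63.2% of all tested genes. That background was not matched for level. RNA of a whole culture cannot tell fewer cells in a phase from less RNA per cell.

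**Figure D1:**
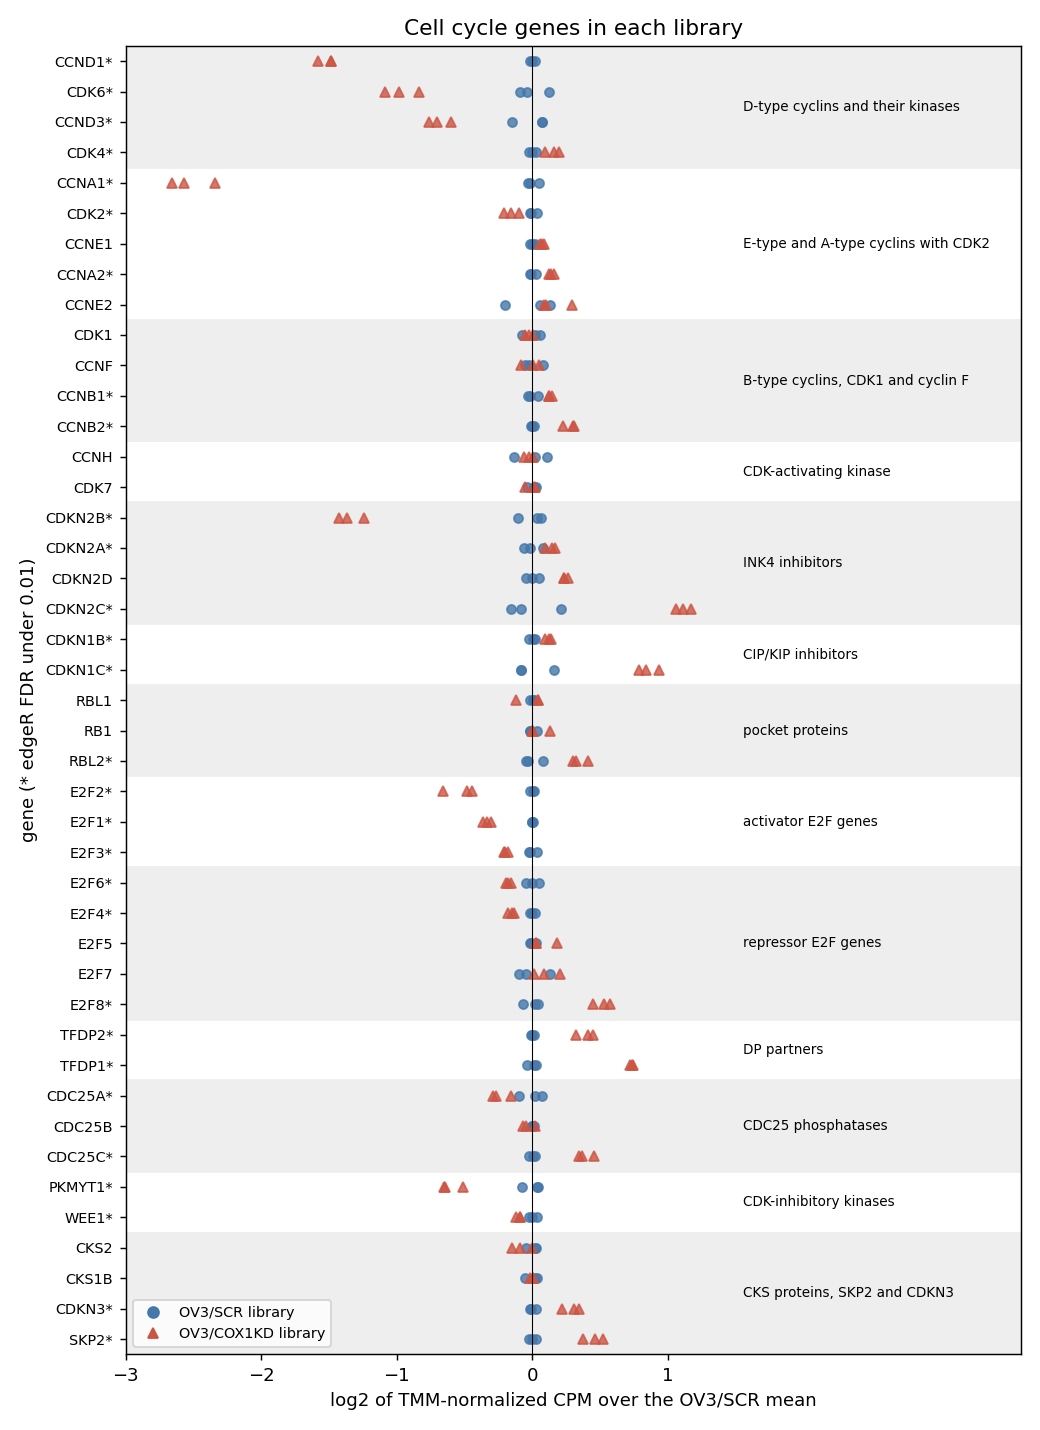
Level of each of the 43 tested genes in each library, as the log2 of its TMM-normalized CPM over the mean of the 3 OV3/SCR libraries, with circles for OV3/SCR and triangles for OV3/COX1KD libraries, grouped by role. CCNA1, CCND1, CDKN2B and CDK6 lie farthest to the left and CDKN2C and CDKN1C farthest to the right, while most S-phase and mitotic genes stay near 0.

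PTGS1, the targeted gene, had 641 to 713 counts in OV3/SCR and 456 to 501 in OV3/COX1KD libraries. It was down-regulated to 73.3% of the control (log2 fold change -0.45, SE 0.057, FDR = 1.34e-06). This fall did not pass 0.5 in size, and the study selected the clone by its COX-1 protein level. The study also reported lower COX-1 mRNA by quantitative PCR and less prostaglandin production from arachidonic acid in these cells. Of 12 ovarian carcinoma markers, 11 were tested, and all 11 differed between the lines, 8 higher and 3 lower in OV3/COX1KD, where 47.9% of all tested genes were called. MUC16, the gene of the CA125 antigen, rose most (log2 fold change 1.36), followed by FOLR1 (1.19), MSLN (0.87), CDH1 (0.85), KRT18 (0.75) and KRT8 (0.65). PAX8, the lineage factor of this carcinoma, had 19370 to 20262 counts in OV3/SCR and 11233 to 11791 in OV3/COX1KD libraries (log2 fold change -0.76), and the estrogen receptor gene ESR1 had at most 2 counts in any library. The summed level of 9 fibroblast markers was 12.8 to 13.7 CPM in OV3/SCR and 8.71 to 9.62 CPM in OV3/COX1KD, with 1 of 4 tested genes lower (COL1A1, log2 fold change -0.77) and LUM and COL3A1 at 0 counts in all OV3/SCR libraries. The summed level of 6 leukocyte markers was at most 2.15 CPM, and neither of the 2 tested was called. Of 12 proliferation markers, 8 were higher in OV3/COX1KD and none was lower, or 66.7% called against 47.9% of all tested genes. Among the 6186 abundant genes set apart above, 67.1% were called, so the share of these markers was close to that background. Summed over the 12 markers, the level was 2144 to 2236 CPM in OV3/SCR and 2436 to 2631 CPM in OV3/COX1KD. The highest was TOP2A (log2 fold change 0.37) and the lowest AURKB (-0.06, not called). With total count scaling 6 markers were higher and 2 lower. With offsets for GC content and length, chosen after seeing the data, 7 were higher and 1 lower. MKI67, the best known of these markers, was at 485, 528 and 523 CPM in OV3/SCR and 656, 532 and 629 CPM in OV3/COX1KD libraries, with OV3/COX1KD replicate 2 close to the OV3/SCR level. The part of these differences in the results below was not tested.

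D-type cyclins and their kinases, the entry point into G1, were the role group with the lowest median. Of 4 tested genes 3 fell (CCND1, CCND3 and CDK6) and 1 rose (CDK4), and all 3 falls were beyond a log2 fold change of 0.5. CCND1 (cyclin D1, ENSG00000110092, GRCh37 chromosome 11, 69455924 to 69469242) was counted 2901, 2865 and 2883 times in OV3/SCR and 989, 920 and 1045 times in OV3/COX1KD libraries. The OV3/COX1KD libraries were all far below the OV3/SCR libraries, at 34.9% of the control level (log2 fold change -1.52, SE 0.039, FDR = 7.15e-17). Exons of ORAOV1 on the opposite strand cover 10.4% of the exon length of CCND1.

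CCND3 (cyclin D3, chromosome 6 from 41902672 to 42018095) had 422, 413 and 351 counts in OV3/SCR and 233, 223 and 265 in OV3/COX1KD libraries. Its level was 62.1% of the control (log2 fold change -0.69, SE 0.081, FDR = 4.98e-07), and the lines did not overlap. CCND2 (cyclin D2) had 1, 1 and 0 counts in OV3/SCR and 1, 0 and 0 in OV3/COX1KD libraries. All 6 libraries were under the floor of 3 counts, which corresponds to 0.112 to 0.120 CPM, so CCND2 was not tested and has no fold change. This floor covers counting error only, since PCR copies of a read are not independent molecules.

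CDK6 (chromosome 7 from 92234235 to 92465887), a catalytic partner of the D-type cyclins, had 412, 451 and 386 counts in OV3/SCR and 224, 188 and 214 in OV3/COX1KD libraries. It fell to 51.2% of the control (log2 fold change -0.96, SE 0.084, FDR = 6.50e-09). CDK4, the other partner, went the opposite way by a small amount, from 146 ± 2.36 TMM-normalized CPM (SD, n = 3) to 162 ± 5.72 (SD, n = 3), a log2 fold change of 0.15 (SE 0.033, FDR = 6.74e-04). This rise was not called with total count scaling (log2 fold change 0.07, FDR = 0.0678). Exons of TSPAN31 on the opposite strand, itself higher in OV3/COX1KD by a log2 fold change of 0.30, cover 44.2% of the exon length of CDK4. The library kit used does not mark the strand, so reads from these stretches cannot be assigned to either gene. Shorter overlaps of this kind cover 16.5% of the exon length of E2F5 (with C8orf59), 12.9% of CCNH (RASA1), 9.24% of CCNA2 (EXOSC9), 8.80% of CDC25C (FAM53C) and 7.51% of RBL2 (AKTIP).

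Levels of different genes were compared only per exon length, as RPKM (CPM per kilobase of exon). This length joins the exons of all annotated isoforms, including stretches shared with genes on the opposite strand. Levels and shares set between genes are therefore approximate. Among the D-type cyclins, CCND1 was at 23.1 ± 0.285 RPKM (SD, n = 3) in OV3/SCR and 8.07 ± 0.309 in OV3/COX1KD, and CCND3 at 2.62 ± 0.227 and 1.63 ± 0.0924 RPKM. CCND1 therefore remained the main D-type cyclin mRNA, with 89.3 to 90.9% of their summed RPKM in OV3/SCR and 82.7 to 83.7% in OV3/COX1KD libraries. CDK4 stood far above CDK6 in both lines, with 97.1 to 97.5% of their summed RPKM in OV3/SCR and 98.6 to 98.8% in OV3/COX1KD.

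Among the E-type and A-type cyclins, which act with CDK2 around S phase, a single gene changed strongly. CCNA1 (cyclin A1, ENSG00000133101, chromosome 13 from 37005657 to 37017007), known mainly from the male germ line, had 1977, 2019 and 1899 counts in OV3/SCR and 318, 371 and 317 in OV3/COX1KD libraries. At 17.5% of the control level it had the largest fold change in size of the 43 tested members (log2 fold change -2.52, SE 0.059, FDR = 2.26e-17). CCNA2 (cyclin A2), the A-type cyclin of dividing somatic cells, had 2981, 2822 and 2822 counts in OV3/SCR and 3032, 2992 and 3268 in OV3/COX1KD libraries.

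The CCNA2 difference was a log2 fold change of 0.14 (SE 0.032, FDR = 0.00108). It was not called with total count scaling (0.06, FDR = 0.124) or with offsets for GC content and length, an alternative chosen after seeing the data (0.04, FDR = 0.321). Per exon length the A-type cyclins were close to each other in OV3/SCR, 33.3 ± 0.954 RPKM for CCNA1 and 39.9 ± 0.670 for CCNA2 (SD, n = 3). In OV3/COX1KD they stood at 5.83 ± 0.671 and 44 ± 0.605 RPKM. The share of CCNA2 in their sum went from 53.4 to 55.3% in OV3/SCR libraries to 86.9 to 89.4% in OV3/COX1KD libraries.

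CCNE1 (cyclin E1) was counted 5932, 5744 and 5834 times in OV3/SCR and 5952, 5793 and 6221 times in OV3/COX1KD libraries. Its log2 fold change of 0.07 (SE 0.029, FDR = 0.0482) was not called, except without OV3/COX1KD replicate 2 (0.08, FDR = 0.00536). CCNE1 made up 95.4 to 96.6% of the summed RPKM of the E-type cyclins over the 6 libraries. CCNE2 (cyclin E2) had a log2 fold change of 0.17 (SE 0.080, FDR = 0.0855) with overlapping libraries, and exons of INTS8 on the opposite strand cover 37% of its exon length.

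CDK2, the kinase partner of cyclins E and A, had 2138, 2169 and 2087 counts in OV3/SCR and 1913, 1825 and 1878 in OV3/COX1KD libraries. It was 89.8% of the control (log2 fold change -0.16, SE 0.038, FDR = 0.00163). The call was lost without OV3/SCR replicate 2 (-0.14, FDR = 0.0153) and without OV3/COX1KD replicate 3 (-0.13, FDR = 0.0152).

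**Figure D2:**
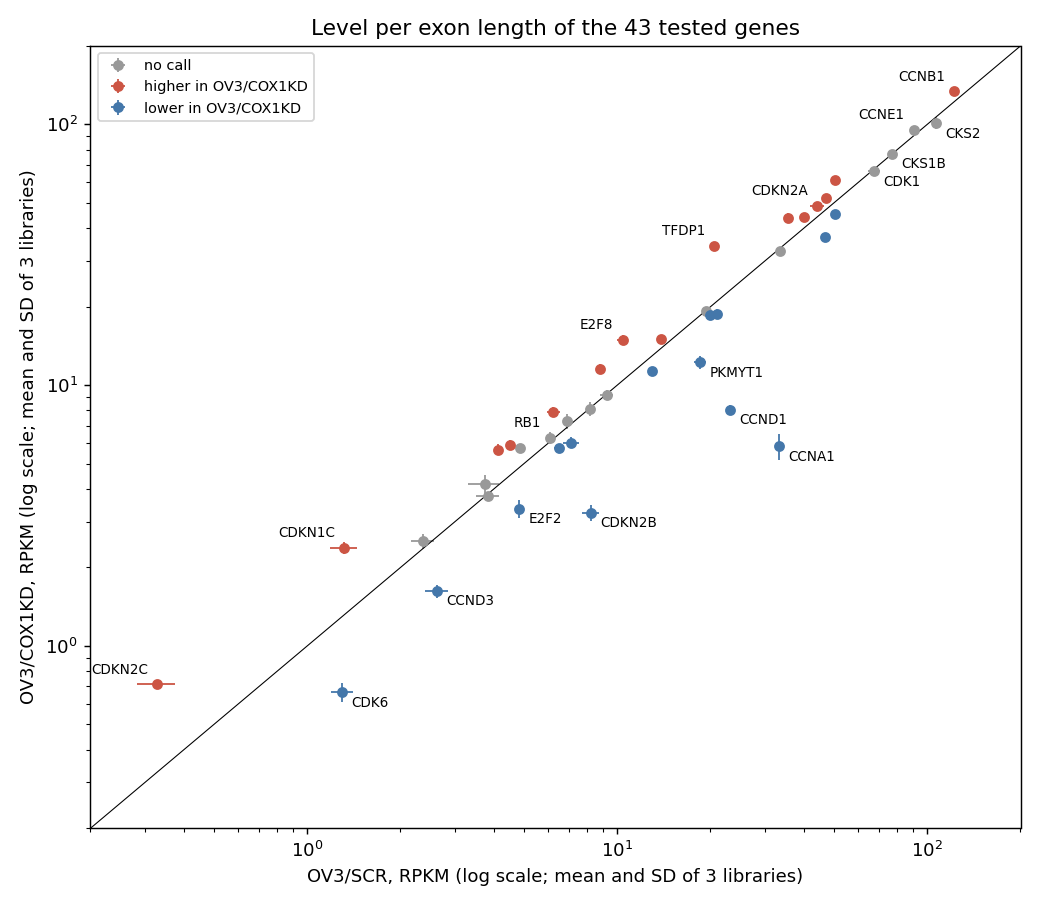
Mean level of the 43 tested genes in OV3/COX1KD against OV3/SCR cells in RPKM, both axes on a log scale, with SD bars over 3 libraries per line and the line of equal levels. CCNB1, CCNE1, CKS2, CKS1B and CDK1 are the most abundant per length and lie near the line, while CCNA1, CCND1, CDKN2B, CCND3 and CDK6 lie below it and TFDP1, CDKN1C and CDKN2C above it.

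Of the B-type cyclins, CDK1 and CCNF, 2 rose and 2 were not called, all within 0.28 of a log2 fold change of 0. CCNB1 (cyclin B1), the member with the highest level per length, was at 122 ± 3.24 RPKM in OV3/SCR and 134 ± 1.11 in OV3/COX1KD cells (SD, n = 3), and CDK1, its kinase, at 67.3 ± 3.07 and 66.2 ± 1.27 RPKM. CCNB2 (cyclin B2) had the largest change of this group, from 3735, 3590 and 3587 counts in OV3/SCR to 4091, 4282 and 4584 in OV3/COX1KD libraries, at a log2 fold change of 0.28 (SE 0.032, FDR = 3.68e-07). All its OV3/COX1KD libraries were above all OV3/SCR libraries. CCNB1 rose by 0.13 on the log2 scale (SE 0.029, FDR = 8.48e-04), a call lost with total count scaling (0.05, FDR = 0.155) and with GC and length offsets (0.03, FDR = 0.349).

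CDK1 had a log2 fold change of -0.02 (SE 0.034, FDR = 0.559), and CCNF, an F-box protein of the cyclin family that serves a ubiquitin ligase, one of -0.01 (SE 0.045, FDR = 0.871). CDK7 and its partner CCNH, which form the kinase that activates other CDKs, had log2 fold changes of -0.01 (SE 0.043, FDR = 0.910) and -0.03 (SE 0.063, FDR = 0.712), the larger in size of this pair being CCNH with 661, 544 and 601 counts in OV3/SCR and 580, 565 and 586 in OV3/COX1KD libraries. The libraries of the lines overlapped in all 4 of these genes.

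INK4 inhibitors, which bind CDK4 and CDK6, moved in opposite directions, 2 of 4 higher, 1 lower and 1 not called. CDKN2B (p15INK4B, ENSG00000147883, chromosome 9 from 22002902 to 22009304) had 917, 794 and 872 counts in OV3/SCR and 320, 349 and 326 in OV3/COX1KD libraries. It fell to 39.4% of the control (log2 fold change -1.34, SE 0.066, FDR = 1.09e-12). CDKN2A (chromosome 9 from 21967751 to 21995300), the next gene on the chromosome, encodes p16INK4A and ARF and had 4820, 4280 and 4394 counts in OV3/SCR and 4857, 4754 and 4884 in OV3/COX1KD libraries.

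The log2 fold change of CDKN2A was 0.14 (SE 0.036, FDR = 0.00308). Its call was lost with total count scaling (0.06, FDR = 0.186) and without OV3/SCR replicate 2 (0.11, FDR = 0.0325), replicate 3 of OV3/SCR (0.13, FDR = 0.0203) or OV3/COX1KD replicate 1 (0.12, FDR = 0.0195). The counts do not part p16INK4A from ARF, and exons of CDKN2B-AS1 on the opposite strand, lower in OV3/COX1KD by a log2 fold change of -0.47 (FDR = 0.00669), cover 15.3% of its exon length. These neighbouring genes therefore differed in opposite directions between the lines.

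CDKN2C (p18INK4C) was scarce, with 25, 30 and 23 counts in OV3/SCR and 54, 56 and 55 in OV3/COX1KD libraries. Its rise to 2.16-fold of the control was the largest among the tested members (log2 fold change 1.11, SE 0.20, FDR = 7.01e-05), and its libraries did not overlap. CDKN2D (p19INK4D) had a log2 fold change of 0.24 (SE 0.085, FDR = 0.0205), which was not called. CDKN2A held 76.1 to 77.4% of the summed INK4 RPKM in OV3/SCR and 83.1 to 83.8% in OV3/COX1KD libraries.

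The CIP/KIP inhibitors of the set, which bind several cyclin-CDK complexes, were both higher in OV3/COX1KD. CDKN1C (p57KIP2, chromosome 11 from 2904443 to 2907005) had 82, 80 and 94 counts in OV3/SCR and 147, 141 and 166 in OV3/COX1KD libraries, a 1.81-fold rise (log2 fold change 0.86, SE 0.12, FDR = 4.56e-06). CDKN1B (p27KIP1), far more abundant, had 3455, 3284 and 3328 counts in OV3/SCR and 3516, 3419 and 3760 in OV3/COX1KD libraries. Its log2 fold change was 0.12 (SE 0.032, FDR = 0.00326).

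The CDKN1B call was lost in 7 of 13 alternatives, with FDR values from 0.0132 to 0.292. These were total count scaling (0.04), DESeq2 (0.11), GC and length offsets (0.08), and leaving out replicate 2 (0.11) or 3 (0.13) of OV3/SCR or replicate 1 (0.12) or 3 (0.11) of OV3/COX1KD. Per exon length CDKN1B was at 13.8 ± 0.202 and 15.0 ± 0.260 RPKM and CDKN1C at 1.31 ± 0.131 and 2.38 ± 0.123 RPKM in OV3/SCR and OV3/COX1KD cells (SD, n = 3).

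**Figure D3:**
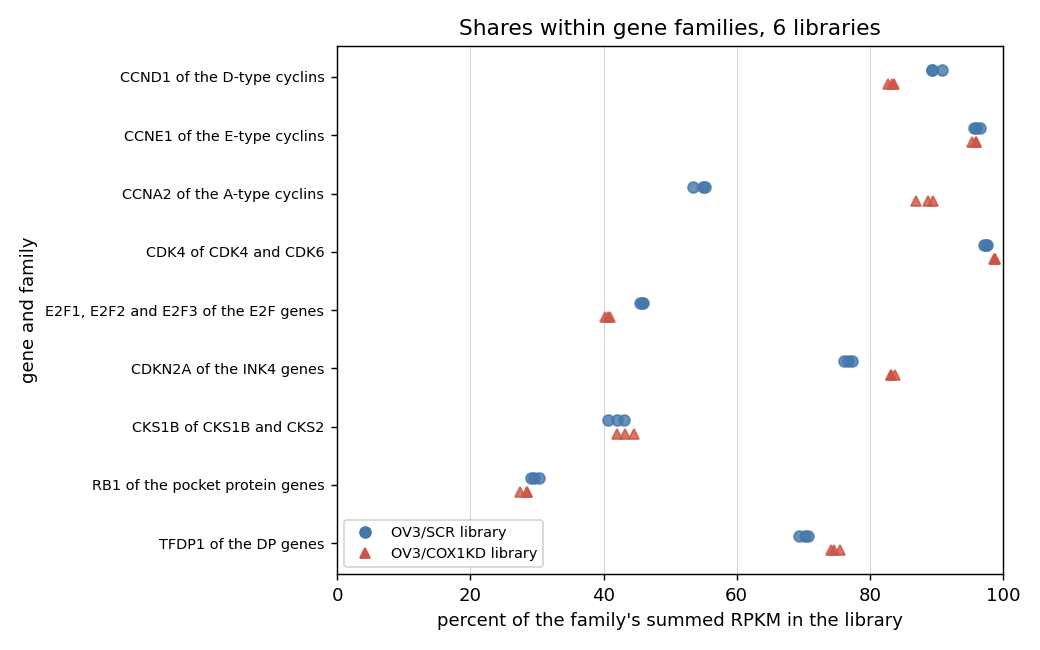
Share of a gene or subgroup in the summed RPKM of its family, in percent, in each of the 3 OV3/SCR (circles) and 3 OV3/COX1KD (triangles) libraries. CCNA2 shows the widest separation, from 53.4 to 55.3% in OV3/SCR to 86.9 to 89.4% in OV3/COX1KD, and the shares of CKS1B and CCNE1 overlap between the lines.

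Pocket proteins, which hold E2F factors in check, showed a single change. RB1 had 1071, 1006 and 1001 counts in OV3/SCR and 990, 979 and 1139 in OV3/COX1KD libraries, at a log2 fold change of 0.04 (SE 0.047, FDR = 0.435). RBL1 (p107) had one of -0.01 (SE 0.047, FDR = 0.892). RBL2 (p130), the pocket protein best known from resting cells, had 1318, 1270 and 1375 counts in OV3/SCR and 1587, 1559 and 1789 in OV3/COX1KD libraries and rose by a log2 fold change of 0.35 (SE 0.044, FDR = 1.45e-06).

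The activator E2F genes, whose products drive entry into S phase, all fell, also under every scaling tried. E2F1 (chromosome 20 from 32263283 to 32274191) had 3349, 3289 and 3252 counts in OV3/SCR and 2513, 2550 and 2607 in OV3/COX1KD libraries, 79.3% of the control (log2 fold change -0.33, SE 0.032, FDR = 3.01e-08). E2F2 (chromosome 1 from 23832930 to 23857725) had 706, 694 and 676 counts in OV3/SCR and 421, 474 and 518 in OV3/COX1KD libraries, 69.5% of the control (log2 fold change -0.52, SE 0.061, FDR = 3.65e-07). Without OV3/COX1KD replicate 1 its log2 fold change was -0.46, still called.

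E2F3 fell least of the activators, with 1765, 1735 and 1785 counts in OV3/SCR and 1472, 1486 and 1548 in OV3/COX1KD libraries (log2 fold change -0.20, SE 0.038, FDR = 1.46e-04). In each of these genes all OV3/COX1KD libraries were below all OV3/SCR libraries. E2F1, E2F2 and E2F3 together held 45.5 to 45.9% of the RPKM summed over E2F1 to E2F8 in OV3/SCR and 40.3 to 40.9% in OV3/COX1KD libraries.

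Of the 5 repressor E2F genes 1 rose, 2 fell and 2 were not called. E2F8, a repressor that acts without a DP partner, had 1096, 1157 and 1128 counts in OV3/SCR and 1607, 1474 and 1653 in OV3/COX1KD libraries and rose (log2 fold change 0.52, SE 0.045, FDR = 5.99e-09), with libraries that did not overlap. Total count scaling gave 0.44. E2F7, its close relative, had a log2 fold change of 0.10 (SE 0.074, FDR = 0.246) and was not called.

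E2F4, the most abundant E2F per length at 50.5 ± 0.579 RPKM in OV3/SCR (SD, n = 3), fell to 45.3 ± 0.683 RPKM in OV3/COX1KD (log2 fold change -0.16, SE 0.030, FDR = 1.58e-04). E2F5 was not called (0.08, SE 0.048, FDR = 0.168). E2F6 had a log2 fold change of -0.18 (SE 0.053, FDR = 0.00708), and its call was lost in 8 of 13 alternatives, with FDR values up to 0.0440. Among these were DESeq2 (-0.18, FDR = 0.0283), no filter (-0.16, FDR = 0.0350) and leaving out any OV3/SCR replicate (-0.15, -0.18 and -0.20 for replicates 1, 2 and 3) or OV3/COX1KD replicate 1 (-0.17) or 3 (-0.17).

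Both DP partners, which most E2F proteins need to bind DNA, rose under every scaling tried. TFDP1 (ENSG00000198176, chromosome 13 from 114239036 to 114295788) had 2067, 2050 and 1940 counts in OV3/SCR and 3223, 3188 and 3429 in OV3/COX1KD libraries, a 1.66-fold rise (log2 fold change 0.73, SE 0.034, FDR = 4.44e-13). TFDP2 (chromosome 3 from 141663270 to 141868386) had 2785, 2709 and 2718 counts in OV3/SCR and 3492, 3276 and 3790 in OV3/COX1KD libraries, a 1.31-fold rise (log2 fold change 0.39, SE 0.035, FDR = 1.11e-08). The activator E2F genes and the genes of their partners thus differed in opposite directions between the lines.

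Promoter sequences are shown because E2F genes are known targets of E2F factors and because mitotic genes often carry a cell cycle homology region (CHR). In RefSeq windows of 300 bases around the gene start (GRCh38.p14), found for 35 of the 44 members, 4 spellings of the E2F site (TTTCCCGC, TTTCGCGC, TTTGCCGC and TTTGGCGC) were searched on both strands. They occurred in 7 of 35 member promoters (20%) and in 3.31% of 35116 promoters. The 35116 were not limited to tested genes or to 1 window per gene, so these shares are not on a like basis. The 7 were E2F1, E2F2, E2F3, CDC25A, RBL1, CDK1 and TFDP1, of which 4 were lower, 1 was higher and 2 were not called in OV3/COX1KD. Over all tested genes with a window, 54.7% of 514 with these letters and 54.3% of 9648 without them were called, so the shares with and without them were close.

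The stretches below run 5′ to 3′ on the strand of the gene, all 60 bases long and ending at the last base before the gene start except for TFDP1, with letters that match an E2F spelling in capitals. E2F1 lies at chr20:33686386-33686445 (minus strand), E2F2 at chr1:23531234-23531293 (minus), E2F3 at chr6:20401819-20401878 (plus), CDC25A at chr3:48188418-48188477 (minus), RBL1 at chr20:37095998-37096057 (minus) and TFDP1, from position -130 to -71, at chr13:113584623-113584682 (plus) of GRCh38.p14.
E2F1: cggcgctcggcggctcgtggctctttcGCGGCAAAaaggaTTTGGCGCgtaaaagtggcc
E2F2: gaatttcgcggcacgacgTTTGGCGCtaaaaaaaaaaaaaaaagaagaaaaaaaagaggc
E2F3: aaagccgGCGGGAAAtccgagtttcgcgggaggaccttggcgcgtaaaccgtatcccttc
CDC25A: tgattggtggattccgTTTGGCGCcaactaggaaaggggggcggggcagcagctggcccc
RBL1: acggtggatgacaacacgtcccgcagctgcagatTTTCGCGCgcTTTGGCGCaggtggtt
TFDP1: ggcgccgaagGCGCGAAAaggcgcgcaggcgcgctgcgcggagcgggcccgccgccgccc

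In the 3 activator genes the first match began at position -33 (E2F1), -42 (E2F2) and -53 (E2F3) from the gene start, and in CDC25A at -44. All 4 of these genes were lower in OV3/COX1KD. RBL1, with 2 matches in the same stretch, was not called, and TFDP1, with its match at -120, was higher. A match is a description of the letters and not of binding.

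CHR letters (TTTGAA or TTCGAA, either strand) occurred in 8 of 35 member promoters (22.9%) and in 16.4% of all promoters, again not limited to tested genes. CCNB2 (chr15:59105086-59105145, plus), CKS1B (chr1:154974621-154974680, plus) and CKS2 (chr9:89311135-89311194, plus) had them at positions -29, -30 and -29, shown in capitals.
CCNB2: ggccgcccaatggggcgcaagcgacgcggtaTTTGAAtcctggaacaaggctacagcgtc
CKS1B: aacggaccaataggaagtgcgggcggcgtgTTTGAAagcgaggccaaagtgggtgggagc
CKS2: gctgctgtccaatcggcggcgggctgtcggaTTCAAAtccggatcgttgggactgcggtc
Of the 8 members with CHR letters, CCNB2, CDKN3 and RBL2 were higher in OV3/COX1KD, E2F3 was lower, and CCNF, CDK1, CKS1B and CKS2 were not called. Over all tested genes with a window, 52.6% of 1119 with these letters and 54.5% of 9043 without them were called. The members with the largest falls that had a window, CCNA1, CDKN2B and CDK6, had neither set of letters in it. Their last 60 bases before the start (CCNA1 at chr13:36431895-36431954, plus, CDKN2B at chr9:22009306-22009365, minus, and CDK6 at chr7:92836574-92836633, minus) are shown for comparison, with no capitals.
CCNA1: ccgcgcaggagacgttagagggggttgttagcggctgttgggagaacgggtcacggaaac
CDKN2B: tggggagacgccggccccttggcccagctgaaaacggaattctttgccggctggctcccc
CDK6: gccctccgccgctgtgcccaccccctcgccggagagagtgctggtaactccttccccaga

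The kinases that hold CDKs inactive were lower in OV3/COX1KD, PKMYT1 by far the more. PKMYT1 (chromosome 16 from 3018025 to 3030480), which phosphorylates CDK1 at membranes, had 2535, 2459 and 2264 counts in OV3/SCR and 1477, 1623 and 1571 in OV3/COX1KD libraries, 65.8% of the control (log2 fold change -0.60, SE 0.044, FDR = 5.12e-10). Exons of PAQR4 and KREMEN2 on the opposite strand cover 24.7% and 7.18% of its exon length, and both of those genes were higher in OV3/COX1KD, by log2 fold changes of 0.24 and 0.83. WEE1, the nuclear kinase of the same site, had 5028, 4794 and 4675 counts in OV3/SCR and 4260, 4332 and 4616 in OV3/COX1KD libraries (log2 fold change -0.10, SE 0.031, FDR = 0.00724).

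The WEE1 call was lost in 8 of 13 alternatives, with FDR values up to 0.0765. Among these were DESeq2 (-0.11, FDR = 0.0144), no filter (-0.08, FDR = 0.0765) and leaving out replicates 1, 2 and 3 of OV3/SCR (-0.08, -0.10 and -0.11) or 1 and 3 of OV3/COX1KD (-0.09 and -0.11). Of the CDC25 phosphatases, CDC25C, which acts on CDK1 at mitosis, had the largest change, from 392, 397 and 389 counts in OV3/SCR to 486, 516 and 506 in OV3/COX1KD libraries (log2 fold change 0.39, SE 0.062, FDR = 2.15e-05). CDC25A, the form acting at the entry into S phase, had 824, 777 and 710 counts in OV3/SCR and 663, 603 and 651 in OV3/COX1KD libraries (log2 fold change -0.24, SE 0.057, FDR = 0.00147).

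The CDC25A call was lost without OV3/SCR replicate 1 (-0.20, FDR = 0.0156) and without OV3/SCR replicate 2 (-0.23, FDR = 0.0106). CDC25B was not called (-0.03, SE 0.033, FDR = 0.408), except with total count scaling (-0.11, FDR = 0.00689). Of the phosphatases, CDC25B was the most abundant per length, at 33.4 ± 0.177 RPKM in OV3/SCR and 32.7 ± 1.04 in OV3/COX1KD cells (SD, n = 3).

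SKP2, the F-box protein that targets p27KIP1 for degradation, had 1882, 1870 and 1898 counts in OV3/SCR and 2489, 2336 and 2746 in OV3/COX1KD libraries. It rose 1.37-fold (log2 fold change 0.45, SE 0.040, FDR = 7.43e-09), and the libraries did not overlap. CKS1B, the small cofactor of SKP2 in this step, had a log2 fold change of -0.0013 (SE 0.032, FDR = 0.975), and its relative CKS2 one of -0.08 (SE 0.042, FDR = 0.119). CKS1B was called lower with GC and length offsets (-0.10, FDR = 0.00726) and CKS2 with total count scaling (-0.16, FDR = 0.00290). CDKN3, a phosphatase that acts on CDK1 and CDK2, rose from 65.3 ± 1.13 to 80.0 ± 3.51 TMM-normalized CPM (SD, n = 3; log2 fold change 0.29, SE 0.039, FDR = 2.68e-06).

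Other genes of the cell cycle machinery were counted in lists drawn up by function. Of 97 tested genes in 7 such lists, 29 were higher and 27 lower in OV3/COX1KD, or 57.7% called, against 47.9% of all tested genes and 57.7% of the 13012 whose mean log2 CPM reached 1. Total count scaling gave 19 higher and 37 lower. The median log2 fold change was 0.03, and 11 genes passed a log2 fold change of 0.5 in size, or 11.3% against the 19.9% of all tested genes given above.

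**Figure D4:**
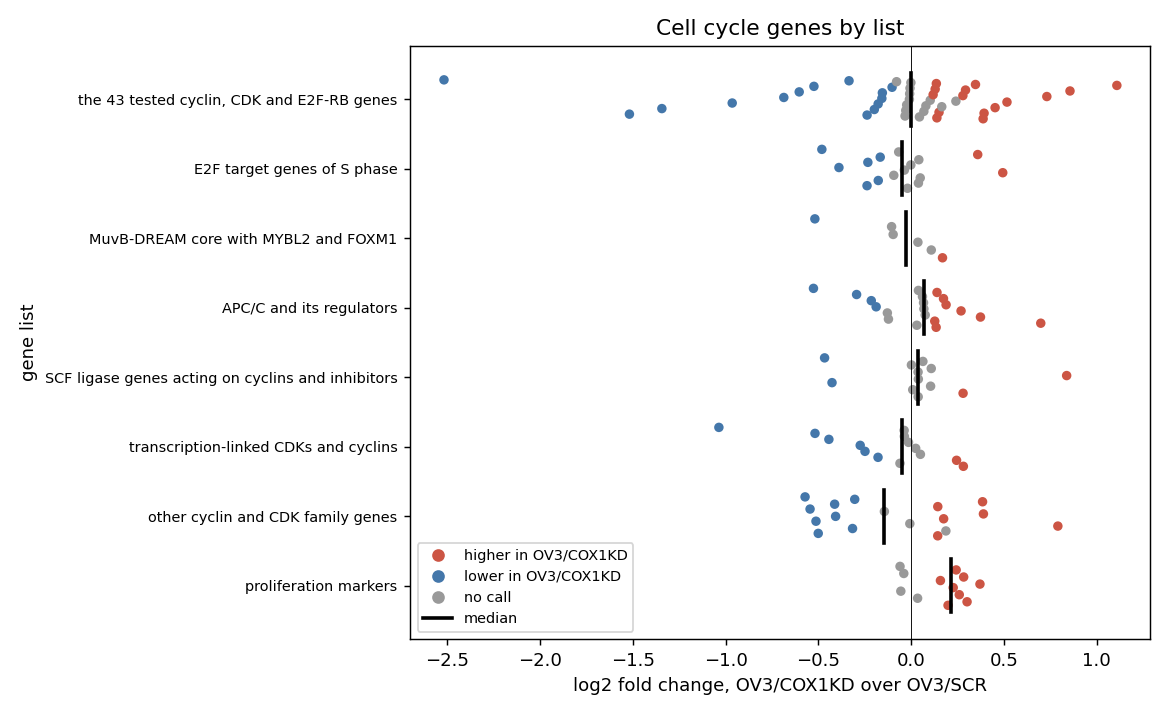
Log2 fold change of OV3/COX1KD over OV3/SCR for the 43 tested genes and for 7 lists of other cell cycle genes, each dot a gene coloured by its call and each bar the median of its list. The 43 genes spread from -2.52 to 1.11, and the median of the proliferation markers is 0.21, the highest shown.

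Among 16 S-phase genes known as E2F targets, 6 fell, 2 rose and 8 were not called, with a median log2 fold change of -0.05. The share called was 50%, against 47.9% of all tested genes and 57.7% of the 13012 more abundant ones described above. Most of the 16 lay at a mean log2 CPM of at least 5, where 67.1% of 6186 genes were called. The share of this list was lower than that, a difference that was not tested. None of the 16 passed 0.5 in size. The lowest was UHRF1, a factor of maintenance methylation (log2 fold change -0.48, SE 0.041, FDR = 4.34e-09). CDT1 and CDC6, which load the replicative helicase, both fell, by log2 fold changes of -0.39 and -0.24. Of the subunits of that helicase, MCM3 and MCM5 also fell (-0.18 and -0.17). MCM2, MCM4, MCM6 and MCM7 were not called (0.04, -0.07, -0.09 and -0.04). With total count scaling 10 of the 16 fell and 2 rose.

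Of the MuvB-DREAM genes, which bring pocket proteins or MYBL2 to cell cycle promoters, 6 of 7 were tested. MYBL2 had 6166, 6486 and 6213 counts in OV3/SCR and 4207, 4246 and 4429 in OV3/COX1KD libraries and fell (log2 fold change -0.52, SE 0.032, FDR = 4.53e-11). RBBP4 rose by 0.17 (SE 0.034, FDR = 2.65e-04), and FOXM1, an activator of mitotic genes, was not called (-0.11, SE 0.038, FDR = 0.0218). With total count scaling 3 of these genes fell and none rose. LIN37 had at most 1 count in any library and was not tested.

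The anaphase-promoting complex and its regulators, which degrade mitotic cyclins, had 8 higher, 4 lower and 8 uncalled genes of 20. The share called was 60%, against 47.9% of all tested genes and 57.7% of those whose mean log2 CPM reached 1. With total count scaling 4 of the 20 were higher and 6 lower, and without OV3/SCR replicate 2, 5 were higher. CDC16 rose (log2 fold change 0.70, SE 0.050, FDR = 3.92e-10) and CDC23, another TPR-repeat subunit of the complex, fell (-0.53, SE 0.041, FDR = 1.25e-09). Of 12 genes of SCF-type ligases, 2 were higher, 2 lower and 8 uncalled, or 33.3% called against the same 47.9% and 57.7%. Without OV3/COX1KD replicate 2, 4 of the 12 were higher. FBXO4 rose from 89, 93 and 94 counts in OV3/SCR to 180, 145 and 158 in OV3/COX1KD libraries (log2 fold change 0.84, SE 0.12, FDR = 6.43e-06), and FBXW7, the F-box protein that recognizes cyclin E, had a log2 fold change of -0.47 (SE 0.057, FDR = 8.31e-07).

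Of 14 CDKs and cyclins linked to transcription, 6 fell and 2 rose, or 57.1% called against 47.9% of all tested genes. CDK11A (-1.04, SE 0.088, FDR = 4.89e-09) and CDK11B (-0.52, SE 0.063, FDR = 6.69e-07) had the largest falls, and since these genes are near-identical copies the division of reads between them is uncertain. Of 17 other cyclin and CDK family genes 8 fell and 6 rose, and with total count scaling 8 fell and 3 rose. The share called was 82.4%, against 47.9% of all tested genes and 57.7% of those whose mean log2 CPM reached 1. Without OV3/SCR replicate 1 or 3 only 3 rose, and without OV3/SCR replicate 3 only 5 fell. Those beyond 0.5 in size were CCNO (-0.57, FDR = 7.49e-05), CDK5R1 (-0.54, FDR = 0.00199), CDK10 (-0.51, FDR = 5.22e-08) and CDK14 (-0.50, FDR = 3.53e-06), which fell, and CCNB3 (0.79, FDR = 0.00313), which rose. CCNB3 was scarce, with 26 to 29 counts in OV3/SCR and 41 to 55 in OV3/COX1KD libraries.

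Because the lines are single clones, each member was set beside its chromosomal neighbours, the tested genes within 2 Mb whose mean log2 CPM reached 1. The median log2 fold change of the neighbours lay within 0.2 of 0 for 37 of the 43 tested members. CCND1, CCNA1, CDKN2B, CDK6 and CCND3, which fell most, had neighbour medians of -0.05 (24 genes), -0.05 (10 genes), 0.07 (10 genes), 0.00 (20 genes) and -0.06 (43 genes).

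For some other members the neighbours moved in the same direction. The neighbours of RBL2 had a median of 0.39 (10 genes) beside its own 0.35, and those of TFDP1 one of 0.30 (14 genes) beside its own 0.73. Of the TFDP1 neighbours 7 were called higher and 3 lower, and CDC16 (0.70, chromosome 13 from 115000362) is among them. E2F3 had the same value as its 5 neighbours, -0.20. CCNE2 and E2F5, both not called, had neighbour medians of 0.36 (22 genes) and 0.27 (12 genes). E2F6 went the other way from its 21 neighbours, whose median was 0.23. Whether copy number differs between the clones at these places was not tested.

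**Figure D5:**
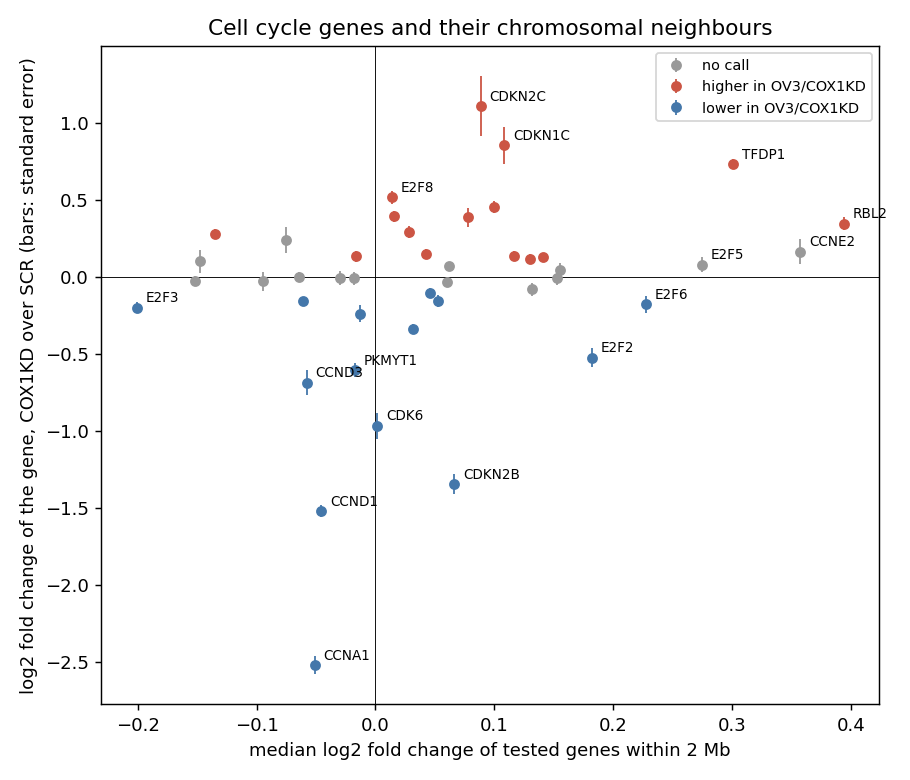
Log2 fold change of each of the 43 tested genes (vertical axis, bars are standard errors) against the median log2 fold change of the tested genes within 2 Mb (horizontal axis), coloured by call. The large falls of CCNA1, CCND1, CDKN2B and CDK6 lie near 0 on the horizontal axis, and RBL2, CCNE2, TFDP1 and E2F5 lie farthest to the right.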

How the data were processed

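RNA was measured in 3 OV3/SCR and 3 OV3/COX1KD libraries (TruSeq RNA kit). Alignment by the authors used TopHat2 (2.0 in the submitters' processing notes) on hg19, and HTSeq counted reads per gene. The deposited values are raw counts of 34811 genes. The gene annotation and strand setting of the counting are not given in the sources used here. Groups and replicate numbers came from the labels. The members and gene lists were chosen with earlier results of these data known.

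The counts were fitted in R 4.3.3 with edgeR 4.0.16: TMM scaling, filterByExpr (17309 genes kept), glmQLFit and glmQLFTest on the line alone, with FDR by Benjamini-Hochberg across all kept genes. The FDR limit of 0.01 was the study's, and the log2 limit of 0.5 the one it used to colour single genes, not the larger fold limit of its own calls. The study's test, DESeq2, was an alternative here. SE values were taken as the absolute log2 fold change over the root of its F statistic. The common dispersion was 0.00103 (3.21% biological variation), which describes populations of 1 clone per line, not the spread between clones. RPKM, coordinates and exon overlaps used GENCODE 44 on GRCh37, the build of hg19, in which 33556 genes had an entry. Promoters came from RefSeq on GRCh38.p14. Scripts were tested on simulated data. By a chi-square test over genes no library of a line was a copy of another.

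By the rule for named genes every member could be named, with full statistics at least for members called beyond 0.5, for the largest change in each role group, and for CCND1, CDK2, E2F1 and CDKN1B, which the study names. Genes of the other lists were named when called beyond 0.5, and otherwise as highest or lowest of a list. A result for 1 gene that this rule names is not reported here. MCM2, MCM3, MCM4, MCM5, MCM6, MCM7, CDC6, CDT1, FOXM1, LIN37, MKI67, ESR1, LUM, COL3A1 and the exon-sharing genes were named after their values were seen. Alternatives were RLE and total count scaling, no filter, 10 counts in every library, DESeq2 1.42.0, the replicate block, leaving out each library, glmTreat against 0.5 and, chosen after seeing the data, GC and length offsets.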

Additional observations from a re-analysis of the deposited data

How the results depend on the processing

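No called member changed direction under any of the alternatives, and 24 of the 43 tested members kept both direction and side of the FDR limit in all of them. Of 559 values over members and alternatives, 36 in 9 members lost the call and 4 in 4 members gained it. The 11 members called beyond 0.5 stayed called throughout, while E2F2 and E2F8 came within 0.5 in some settings, and the number of members higher beyond 0.5 was 3 or 4. Testing against a log2 fold change of 0.5 with glmTreat gave 4 members lower in place of 7, a stricter test by its construction. Total count scaling gave 19 other genes of the pathway higher in place of 29 and shifted the median of all genes from -0.0087 to -0.0865.

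Uncalled members changed sign, all with estimates near 0. With total count scaling CCNE1 had -0.00946 and RB1 -0.0333. With no filter CCNF had 0.013, CDK7 0.0163, RBL1 0.0146 and CKS1B 0.021, and with GC and length offsets CCNF had 0.00556 and RB1 -0.00655. Leaving out each library in turn gave ranges of -0.0379 to 0.0329 for CCNF, -0.0589 to 0.00543 for CDK1, -0.0919 to 0.0321 for CCNH, -0.0244 to 0.0229 for CDK7, -0.0336 to 0.0499 for RBL1 and -0.0257 to 0.0179 for CKS1B. The counts ranged over left-out libraries from 13 to 16 members higher and 10 to 14 lower, and from 24 to 31 other genes higher and 21 to 27 lower. The replicate numbers did not pair the libraries: deviations of same-numbered libraries correlated across genes at 0.00447, 0.0424 and 0.00896, and 2 of 6 libraries correlated best with their own number. The replicate block gave 8233 called genes in place of 8293 and 15 members higher and 12 lower, and among the members only E2F6 (FDR = 0.0101) and WEE1 (FDR = 0.0110) lost the call with it. At this depth, small changes of scarce members such as CCND2 were not detectable.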
